A study of Arabidopsis thaliana with 6 samples.

Results

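The core cell cycle genes of Arabidopsis thaliana are described here across 6 RNA-seq libraries made from decreasing amounts of total RNA. The set holds 54 genes among the 33602 gene models of the count tables and was chosen by function: the A-, B- and D-type cyclins, the A- and B-type cyclin-dependent kinases (CDKs), the CDK subunits CKS1 and CKS2, the kinase WEE1, the CDK inhibitors, the E2F, DP and RBR1 transcriptional regulators, and the activators of the anaphase-promoting complex (APC/C). The choice was made with earlier results of these data known. The study asked how far the amount of template RNA limits the detection of transcripts. The cDNA was synthesised and amplified from polyadenylated RNA by the SMART-Seq v4 method, from 5 ng and from 10, 25, 50, 75 and 100 pg of total RNA, and each amount has 1 library and so no replicates.

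According to the study's methods the amounts are dilutions of a single RNA from whole embryonic cotyledons of sections of embedded seeds, while the sample labels give wild-type plants, the tissue as seed and no treatment. All libraries share these entries. Cyclins and CDKs are named with their locus at first mention and by locus after it. The 5 ng library was sequenced on another date than the rest, so RNA amount, sequencing date and library cannot be told apart in any comparison with it. The libraries held between 22403342 and 51130296 read pairs assigned to genes. Levels are given in read pairs or in TMM CPM, the counts per unit of library size (CPM) after correction by the trimmed-mean (TMM) factors of edgeR. No replicate spread could be measured, and "called" below means at least 2-fold apart on the scale log2(TMM CPM + 1), a description of single libraries. Intervals are exact 95% intervals that cover counting error only, because amplified reads without molecular identifiers are not independent molecules.

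Facts of the whole libraries stand beside every comparison with 5 ng. Seed storage proteins, products of late embryo and seed maturation, took 59.4% of the read pairs at 5 ng and at most 0.00175% in the other libraries, where their 9 genes summed to between 1.20 and 17.5 CPM by library total and between 1 and 7 of the 9 had no pair. Of the embryo regulators LEC1, FUS3, ABI3 and ATML1, all 4 were detected in each library (74.2 CPM in sum at 5 ng, between 343 and 534 elsewhere). The 6 endosperm markers summed to 797 CPM at 5 ng, nearly all from EPR1, against 77.9 to 167 elsewhere. ZOU and MYB118 went the other way, with 0.665 and 1.02 CPM at 5 ng against 35.7 to 130 and 5.27 to 54.4 CPM elsewhere. FIS2 had at most 0.552 CPM in any library. PHE1 was at 0 in all libraries and AGL62 at 0 in those of 5 ng, 25 pg and 10 pg. The 6 seed coat markers reached 56.1 CPM in sum at 5 ng, inside the range of the other libraries (16.5 to 94.01 CPM), but the genes behind the sums differed. Most of the sum elsewhere came from MUM4, with 14.7 to 93.9 CPM against 11.4 CPM at 5 ng. TT10, a laccase of the seed coat, had 2181 pairs (42.7 CPM) at 5 ng and 0 in each other library. BAN had 104 pairs at 5 ng, 45 at 10 pg and 0 in the rest, while TT12, TT1 and TT16 had 0 pairs at 5 ng. The methods give a single RNA for all amounts, and whether the 5 ng library was made from it was not tested. The part of tissue content in the results below was not tested, and in such bulk RNA fewer dividing cells and less of a transcript per cell cannot be told apart.

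Cyclins bind CDKs and give them activity and substrate choice. In plants D-type cyclins with CDKA1 act at entry into the cycle, where they phosphorylate RBR1 and free E2F factors, while A-type cyclins, B-type cyclins and the plant-specific B-type CDKs act from DNA replication to mitosis. KRP and SIAMESE-type proteins inhibit the kinases, and the APC/C with CDC20 or CCS52 marks mitotic cyclins for degradation. In seeds, cell division ends before the phase of storage product accumulation, and some tissues replicate their DNA without dividing.

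Many mitotic genes carry the MSA element, bound by three-repeat MYB proteins, near their start. The 300 bases before the RefSeq gene start (assembly TAIR10.1) are shown for 5 genes without a read pair at 5 ng (an A-type cyclin, 3 B-type cyclins of which 2 were also nearly lost at 10 pg, and an inhibitor), for 2 CDK inhibitors that differed at 5 ng, and for the D-type cyclin with the highest level. None of these windows overlaps another annotated gene. Capitals mark the MSA core AACGG, read on either strand (CCGTT on the printed strand). The CYCA1;1 (AT1G44110) window lies at chr1:16777353-16777652 (minus strand), CYCB1;3 (AT3G11520) at chr3:3627274-3627573 (minus), CYCB1;1 (AT4G37490) at chr4:17624309-17624608 (minus), CYCB1;2 (AT5G06150) at chr5:1861704-1862003 (minus), KRP7 at chr1:18366745-18367044 (minus), KRP1 at chr2:9978091-9978390 (minus), KRP6 at chr3:6617952-6618251 (minus) and CYCD3;2 (AT5G67260) at chr5:26835839-26836138 (plus).
AT1G44110: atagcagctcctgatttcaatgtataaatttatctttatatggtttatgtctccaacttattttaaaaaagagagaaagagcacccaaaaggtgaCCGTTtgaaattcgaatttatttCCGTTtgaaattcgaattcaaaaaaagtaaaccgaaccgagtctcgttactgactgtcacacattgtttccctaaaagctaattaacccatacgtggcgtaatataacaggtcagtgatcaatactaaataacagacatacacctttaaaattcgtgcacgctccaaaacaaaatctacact
AT3G11520: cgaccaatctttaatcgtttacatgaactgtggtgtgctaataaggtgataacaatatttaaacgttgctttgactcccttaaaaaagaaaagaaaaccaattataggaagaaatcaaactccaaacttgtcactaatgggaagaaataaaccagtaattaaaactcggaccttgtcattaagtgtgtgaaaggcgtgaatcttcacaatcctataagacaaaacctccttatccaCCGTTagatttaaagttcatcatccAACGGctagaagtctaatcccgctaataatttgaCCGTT
AT4G37490: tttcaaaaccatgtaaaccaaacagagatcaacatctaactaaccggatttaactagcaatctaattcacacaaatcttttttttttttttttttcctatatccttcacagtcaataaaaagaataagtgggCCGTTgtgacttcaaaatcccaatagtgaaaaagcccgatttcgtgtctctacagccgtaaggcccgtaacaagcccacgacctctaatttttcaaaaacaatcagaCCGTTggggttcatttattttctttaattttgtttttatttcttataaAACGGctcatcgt
AT5G06150: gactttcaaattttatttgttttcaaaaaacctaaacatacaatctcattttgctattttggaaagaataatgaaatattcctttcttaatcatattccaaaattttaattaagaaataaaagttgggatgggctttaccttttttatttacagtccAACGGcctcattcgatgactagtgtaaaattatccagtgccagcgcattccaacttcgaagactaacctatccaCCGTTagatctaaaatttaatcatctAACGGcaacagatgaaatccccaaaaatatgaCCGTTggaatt
KRP7: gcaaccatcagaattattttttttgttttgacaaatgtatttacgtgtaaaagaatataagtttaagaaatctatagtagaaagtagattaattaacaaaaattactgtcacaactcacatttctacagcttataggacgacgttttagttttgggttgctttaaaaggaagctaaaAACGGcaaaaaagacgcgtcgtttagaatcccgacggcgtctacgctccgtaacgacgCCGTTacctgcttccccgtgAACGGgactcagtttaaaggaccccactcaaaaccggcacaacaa
KRP1: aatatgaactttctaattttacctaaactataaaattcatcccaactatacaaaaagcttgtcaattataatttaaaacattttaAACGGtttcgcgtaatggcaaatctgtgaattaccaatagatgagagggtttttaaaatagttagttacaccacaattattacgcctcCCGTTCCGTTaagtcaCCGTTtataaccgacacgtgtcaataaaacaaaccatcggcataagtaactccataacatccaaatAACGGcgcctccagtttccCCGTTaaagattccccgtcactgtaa
KRP6: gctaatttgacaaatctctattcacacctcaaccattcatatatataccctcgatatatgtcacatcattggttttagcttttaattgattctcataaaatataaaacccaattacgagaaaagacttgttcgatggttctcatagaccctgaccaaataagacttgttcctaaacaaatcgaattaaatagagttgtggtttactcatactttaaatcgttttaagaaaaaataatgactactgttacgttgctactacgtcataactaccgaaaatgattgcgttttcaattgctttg
AT5G67260: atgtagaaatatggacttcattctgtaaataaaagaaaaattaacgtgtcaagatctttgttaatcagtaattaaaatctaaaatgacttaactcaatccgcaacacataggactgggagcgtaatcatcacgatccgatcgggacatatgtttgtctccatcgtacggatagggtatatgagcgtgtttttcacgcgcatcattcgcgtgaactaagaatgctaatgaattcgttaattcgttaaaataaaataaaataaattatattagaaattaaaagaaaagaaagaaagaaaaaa
The A-type cyclin held 2 core matches, AT3G11520 and AT4G37490 3 each, AT5G06150 4, KRP7 3 and KRP1 6, whereas KRP6 and AT5G67260 held none in this window. These windows are examples and do not stand for all members. KRP2, like KRP6 at least 2-fold higher at 5 ng than in each smaller amount, held 2 matches.

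Over the set, the core was found in 24 of 54 windows, against 23.5% of the 26711 windows of nuclear protein-coding genes of the same length. At least 2 copies stood in 12 windows of the set and in 4.52% of all windows. B-type cyclins held the most, with a match before 7 of 9 genes and 2 or more before 6. The A-type cyclins followed with 4 of 7, and the D-type cyclins had 1 of 10. Among the 4 B-type CDKs, all without a pair at 5 ng, only CDKB2;2 (AT1G20930) had a match. The core stood before 5 of 9 CDK inhibitors, KRP1, KRP2, KRP3, KRP4 and KRP7. Of the 21 members with no pair at 5 ng and pairs elsewhere, 11 had a match and 9 had at least 2, against 12 and 2 of the 31 members with pairs at 5 ng. The site of E2F factors, TTTNNCGC with each N a C or a G and read on both strands, was found before 2 members, CYCD3;3 (AT3G50070) and RBR1, and before 1.58% of all genes. A match is a description of the letters and no measurement of binding.

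**Figure D1:**
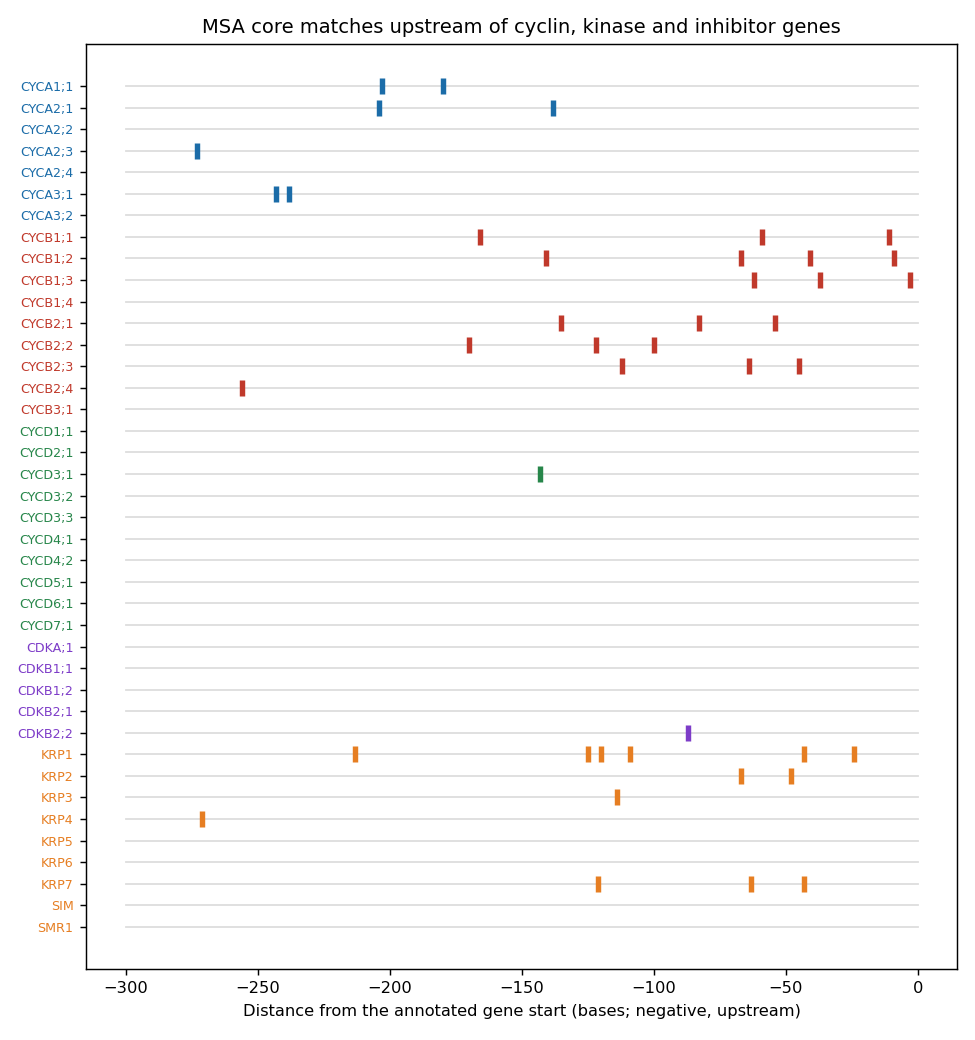
Positions of MSA core matches (ticks, both strands) in the 300 bases before the gene start of the cyclins, CDKs and CDK inhibitors. The horizontal axis is the distance from the start in bases and each row is a gene, coloured by role. The ticks cluster in B-type cyclins (7 of 9 rows) and are nearly missing from D-type cyclins (1 of 10 rows).

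Most of the set was detected in each of the smaller amounts and a large part was missing at 5 ng. At least 1 read pair was found for 31 of the 54 genes at 5 ng and for 52, 52, 49, 49 and 48 genes from 100 pg down to 10 pg. Over all 33602 gene models, 17446 were detected at 5 ng and 19266, 19539, 18485, 16829 and 15936 from 100 to 10 pg. The genes summed to 510 TMM CPM at 5 ng and to 1644, 1500.1, 1654, 1714 and 2116 TMM CPM from 100 pg down to 10 pg. CYCA2;1 (AT5G25380) and CYCD7 (AT5G02110), the latter known from guard cell formation, had no pair in any library, which allows up to 3 pairs in each. All other members had a pair in some library, 46 in each of the 5 smaller amounts and 26 in all 6 libraries. The shares of all genes for 46 and 26 were not counted, so these numbers are not read as a result about the set.

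The 100 pg library was called higher than the 5 ng library for 39 of the 54 genes, against 36.1% of the 17049 genes with a mean of at least 1 CPM over the 6 libraries (52 members are among these). It was called lower for 6 members, against 25.3% of all genes: KRP2, KRP4, KRP6, SIM, DPA and CCS52A2. Each of the 5 smaller amounts was at least 2-fold above 5 ng for 28 members, against 14.1% of all genes, and at least 2-fold below it for 2, KRP2 and KRP6, against 12.2%. Without the 2-fold bound, 5 members (KRP2, KRP4, KRP5, KRP6 and E2FB) were higher at 5 ng than in each other library and 35 were lower, and by library total these numbers were 1 and 41. The share of all genes without this bound was not counted, so these numbers are not read as a result about the set. No pair at 5 ng was found for 23 members, 2 of which had none anywhere, against 11% of all genes. The median difference between 100 pg and 5 ng was 3.0 on the log2 scale over the members and 0.29 over all genes tested. With CPM by library total, which counts the storage protein reads of the 5 ng library in its total, these medians were 3.98 and 2.05, so the members stood 2.71 above all genes with TMM factors and 1.93 above them without. The split of calls over all genes moved with this choice, from 6152 higher and 4308 lower with TMM factors to 12148 and 1290 by library total, while the members went from 39 and 6 to 45 and 2.

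The same shares were then taken among genes of like abundance. Of the 9145 genes with 10 to 100 TMM CPM at 100 pg, 6.17% had no pair at 5 ng, against 14 of 32 members, and 14.9% were at least 10-fold lower at 5 ng, against 21 of 32 members. In the class of 100 to 1000 TMM CPM, 2.51% of 1155 genes had no pair at 5 ng, against 2 of 5 members. In the class of 1 to 10 TMM CPM the shares were 20.3% of 5466 genes and 5 of 14 members. The 5 ng library held 20761112 pairs outside the storage protein genes, against 22403035 at 75 pg, where 2 members had no pair. After TMM factors the effective totals were 15630926 pairs at 5 ng and 30267093 at 75 pg, and the part of depth was not tested. Which of RNA amount, date, library and tissue content goes with these zeros cannot be told apart.

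**Figure D2:**
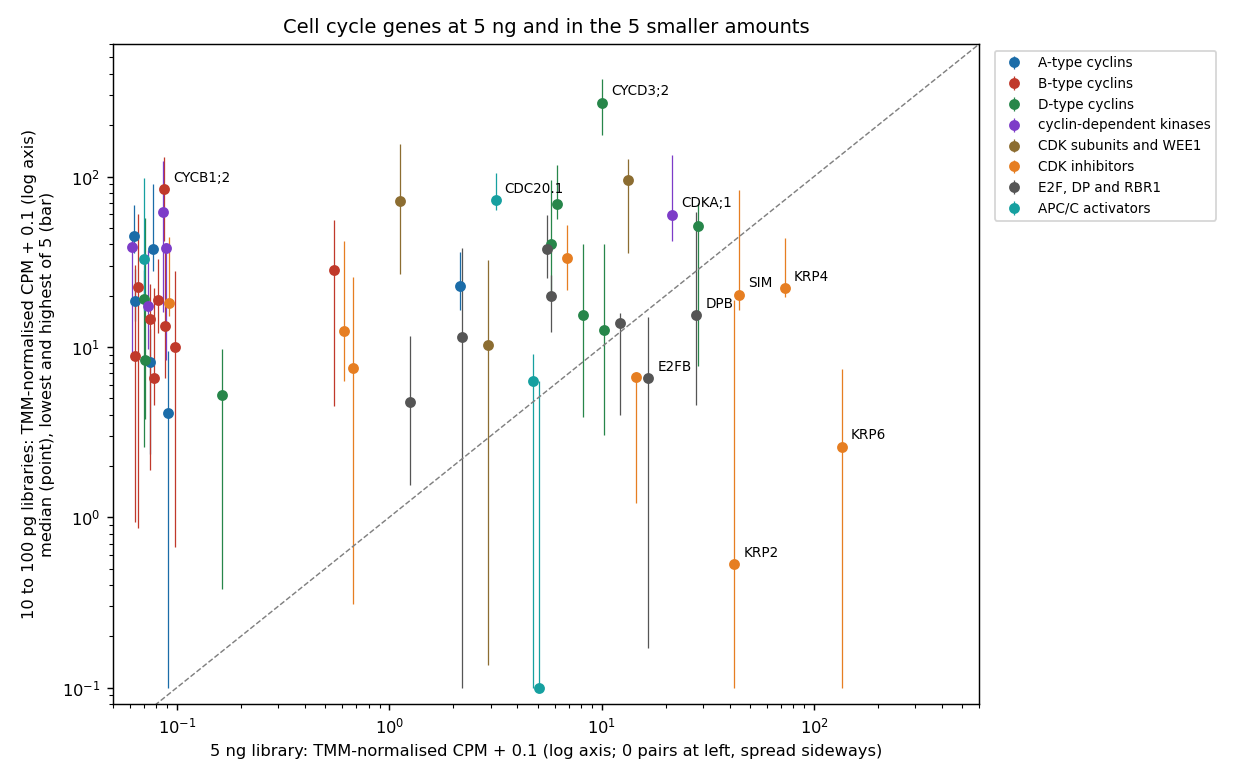
Level of each of the 52 detected members at 5 ng (horizontal, TMM CPM + 0.1, log axis) against the median of the 5 smaller amounts (vertical, same scale, bars run from the lowest to the highest of the 5 libraries), coloured by role. The B-type CDKs and most A- and B-type cyclins stand at the left edge with no pair at 5 ng. The D-type cyclins AT5G10440 and AT4G37630, KRP7 and CCS52B stand there too. KRP6, KRP2 and KRP4 lie below the line of equal levels.

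The mitotic group, made of the A- and B-type cyclins and the B-type CDKs, was nearly missing at 5 ng. Its 20 genes summed to 2.50 TMM CPM at 5 ng and to 689, 501, 496, 602 and 431 TMM CPM from 100 pg to 10 pg. At 5 ng 18 of them had no pair, against 11% of all genes tested. The 17 of those 18 that were seen elsewhere had between 212 and 5672 pairs at 100 pg, 27774 in sum. The exceptions were CYCA2;3 (AT1G15570) with 32 pairs and CYCB1;4 (AT2G26760) with 7 pairs at 5 ng. The same direction held by library total, with sums of 0.763 CPM at 5 ng and between 462 and 974 CPM elsewhere.

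Among A-type cyclins, which act in S phase and at the entry into mitosis, AT1G44110, whose window is shown above, had the highest level at 100 pg. It had 0 TMM CPM at 5 ng and 68.3, 46.7, 44.7, 42.9 and 35.7 TMM CPM at 100, 75, 50, 25 and 10 pg. The 5 smaller amounts lay within 2-fold of one another and all stood above the 5 ng library, with a level at least 356-fold higher at 100 pg, taking 3 pairs as the most that 0 allows. CYCA3;2 (AT1G47210) had 0 TMM CPM at 5 ng and 37.6, 33.2, 27.9, 90.6 and 79.7 TMM CPM in the same order. Here the 25 and 10 pg libraries were the highest. CYCA2;2 (AT5G11300) had 0, 406, 121 and 152 pairs at 5 ng, 100, 75 and 50 pg and 0 pairs at 25 and 10 pg, the only member with at least 10 CPM by library total at 100 pg that had no pair at 25 or 10 pg. CYCA2;4 (AT1G80370) lay between 14.0 and 28.7 TMM CPM and CYCA3;1 (AT5G43080) between 2.26 and 12.7 TMM CPM in the 5 smaller amounts, both with no pair at 5 ng. AT1G15570 had 2.05 TMM CPM at 5 ng and between 16.3 and 36.1 elsewhere, 11.1-fold higher at 100 pg (7.78 to 16.3).

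B-type cyclins drive mitosis, and the levels of all 9 were called higher at 100 pg than at 5 ng, with a median log2 difference of 4.60. Over all genes tested 36.1% were called higher and the median was 0.29. The B1-type cyclin AT5G06150 (TAIR10.1 chromosome 5, bases 1859279 to 1861703) had 0 pairs at 5 ng and 5672, 2366, 3787, 1455 and 2413 pairs at 100, 75, 50, 25 and 10 pg. In TMM CPM the smaller amounts were at 130.3, 78.2, 99.5, 41.5 and 84.3, so all lay above the 5 ng library, and the 100 pg library was at least 679-fold higher. The B1-type cyclin AT4G37490, whose promoter is widely used to mark dividing cells, had 0 pairs at 5 ng and 1346, 680, 540 and 2108 pairs at 100, 75, 50 and 25 pg, but 22 pairs at 10 pg. Its log2 difference between 10 and 100 pg was -4.17, and the ratio was 0.0249 (0.0155 to 0.0378). The third B1-type cyclin with a window above, AT3G11520, had a like profile, with 0 pairs at 5 ng, then 1041, 264, 299 and 1062 pairs, and 24 pairs at 10 pg. For both genes the 25 pg library was the highest and the 10 pg library the lowest of the smaller amounts.

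The other B-type cyclins differed in which library stood low. CYCB2;2 (AT4G35620) was between 12.2 and 23.2 TMM CPM from 100 to 25 pg and at 1.78 TMM CPM at 10 pg. CYCB3;1 (AT1G16330) was at 27.8, 18.9 and 9.83 TMM CPM from 100 to 50 pg and at 0.571 and 2.03 TMM CPM at 25 and 10 pg. AT2G26760 was low at 25 pg, with 4.40 TMM CPM against 25.9 to 55.2 in the other smaller amounts. CYCB2;3 (AT1G20610) and CYCB2;4 (AT1G76310) had their highest level at 25 pg, 32.7 and 38.4 TMM CPM, and CYCB2;1 (AT2G17620) at 100 pg, 22.1 TMM CPM. Among the 5 smaller amounts no single library was thus low for the whole family. The median log2 difference of 10 to 100 pg was -2.08 over the family and -0.20 over all genes tested. AT2G26760, AT1G20610 and AT1G76310 were not lower at 10 pg (0.03, 0.31 and 0.99). AT1G20610 shares 13.7% of its 100-base stretches with AT1G20590, and reads with several hits were removed by the authors, so its count is uncertain.

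B-type CDKs are kinases of G2 phase and mitosis found in plants. CDKB2;1 (AT1G76540) had 0 pairs at 5 ng and 4396, 1864, 1996, 4290 and 454 pairs at 100, 75, 50, 25 and 10 pg. Its 100 pg level was at least 526-fold that at 5 ng, and its 10 pg library was the lowest of the smaller amounts. CDKB1;1 (AT3G54180) was between 31.2 and 40.5 TMM CPM from 100 to 25 pg and at 8.28 TMM CPM at 10 pg. CDKB1;2 (AT2G38620) was between 36.0 and 43.8 TMM CPM in each smaller amount except at 25 pg, where it had 8.59. It shares 16% of its 100-base stretches with the overlapping gene AT2G38630, and the reads carry no strand. AT1G20930 lay between 9.57 and 36.8 TMM CPM in the smaller amounts and shares 7.19% of its 100-base stretches with the overlapping gene AT1G20925. All 4 had no pair at 5 ng, against 11% of all genes tested. In all, 15 of the 54 members overlap another gene of the table, and 45 share no 100-base stretch with any other.

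CDKA1 (AT3G48750), the main CDK, active throughout the cycle, was measured in each library with 334 pairs at 5 ng and 2602, 1378, 2802, 1459 and 3810 pairs at 100, 75, 50, 25 and 10 pg. In TMM CPM it was at 21.4 at 5 ng and at 59.8, 45.5, 73.6, 41.7 and 133 in the smaller amounts, 2.80-fold higher at 100 pg (2.49 to 3.14). The groups did not overlap, but the spread among the smaller amounts was larger than the distance from 5 ng to the lowest of them. CKS1 (AT2G27960) and CKS2 (AT2G27970), small proteins that dock CDKs to their substrates, stood lowest at 5 ng and highest at 10 pg. CKS1 had 13.2 TMM CPM at 5 ng and 35.3, 84.0, 95.8, 108 and 127 TMM CPM from 100 to 10 pg. CKS2 had 1.02 TMM CPM at 5 ng and 26.6, 71.7, 49.9, 73.3 and 156 TMM CPM in the same order. Its 10 pg level was 5.87-fold that at 100 pg (5.50 to 6.26).

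WEE1 (AT1G02970, chromosome 1, bases 673306 to 676419), a kinase that inhibits CDKs when replication is disturbed, had 44 pairs at 5 ng and 1410, 335, 341, 354 and 1 pairs at 100, 75, 50, 25 and 10 pg. In TMM CPM the 100 pg library (32.4) stood above those of 75, 50 and 25 pg (11.1, 8.96 and 10.1), and the 10 pg library was the lowest of all. The ratio of 10 to 100 pg was 0.00108 (2.73e-05 to 0.00602), and the log2 difference of -5.01 was the largest of any member in that comparison.

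Among the 8 role groups D-type cyclins had the highest sum in each of the smaller amounts, with sums of 402 to 719 TMM CPM against 68.4 at 5 ng. The D3-type cyclin AT5G67260 (chromosome 5, bases 26836139 to 26839597), which promotes division in young organs, had 155 pairs at 5 ng and 7661, 6814, 10981, 9525 and 10673 pairs at 100, 75, 50, 25 and 10 pg. In TMM CPM it was at 9.92 at 5 ng and at 176, 225, 289, 272 and 373 in the smaller amounts, which all lay above 5 ng, 17.7-fold at 100 pg (15.1 to 20.9). CYCD3;1 (AT4G34160), its close relative, was at 6.08 TMM CPM at 5 ng and at 109, 59.9, 69.0, 56.1 and 116 TMM CPM in the same order. The third of this subfamily, AT3G50070, differed less, with 28.5 TMM CPM at 5 ng, between 50.5 and 70.0 from 100 to 25 pg, and 7.65 at 10 pg, below the 5 ng library.

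CYCD5;1 (AT4G37630) had the largest difference upward at 10 pg. It had 0 pairs at 5 ng and 161, 249, 141, 708 and 1632 pairs at 100, 75, 50, 25 and 10 pg. The 10 pg level was 15.4-fold that at 100 pg (13.1 to 18.2), and the 25 and 10 pg libraries stood above the other smaller amounts. CYCD1;1 (AT1G70210) was at 5.69 TMM CPM at 5 ng and between 20.8 and 95.1 elsewhere. CYCD2;1 (AT2G22490) and CYCD6;1 (AT4G03270), a cyclin of formative divisions in the root, overlapped between 5 ng (10.1 and 8.06 TMM CPM) and the smaller amounts (2.94 to 40.2 and 3.77 to 40.0). AT4G03270 overlaps the gene AT4G03260 and shares 11.4% of its 100-base stretches with it. CYCD4;1 (AT5G65420) and CYCD4;2 (AT5G10440), known from the stomatal lineage, had 1 and 0 pairs at 5 ng and up to 9.59 and 28.2 TMM CPM in the smaller amounts.

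The CDK inhibitors were the one role group whose sum was highest at 5 ng with TMM factors. Its 9 genes summed to 317 TMM CPM at 5 ng and to 127, 125, 164, 108 and 260 TMM CPM from 100 to 10 pg. By library total this order was turned, with 96.9 CPM at 5 ng and between 130 and 278 CPM elsewhere. The median log2 difference of 100 pg to 5 ng was -0.95 with TMM factors and 1.0 by library total, in each case below that of all genes tested (0.29 and 2.05).

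KRP6 (AT3G19150, chromosome 3, bases 6616330 to 6617951) had the largest difference of this kind. KRP proteins bind and block cyclin-CDK complexes, and KRP6 is known from the male germ line, where it is degraded before division. It had 2113 pairs at 5 ng, 139, 222 and 95 pairs at 100, 75 and 50 pg, and 0 pairs at 25 and 10 pg. In TMM CPM it was at 135 at 5 ng and at 3.19, 7.33 and 2.50 from 100 to 50 pg. The level at 5 ng was 42.3-fold that at 100 pg (35.6 to 50.6), no library of a smaller amount came near it, and its direction was the same by library total.

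KRP2 (AT3G50630), an inhibitor involved in lateral root initiation, had 656 pairs at 5 ng and 97, 13, 0, 13 and 539 pairs at 100, 75, 50, 25 and 10 pg. In TMM CPM the 5 ng library (42.0) was highest, the 10 pg library (18.8) came next and the rest were at 2.23 or less. The level at 5 ng was 18.8-fold that at 100 pg (15.2 to 23.6), while the 10 pg level was 8.45-fold that at 100 pg (6.80 to 10.6). By library total KRP2 was no longer highest at 5 ng, and KRP6 was the only member that was. KRP4 (AT2G32710) was at 72.9 TMM CPM at 5 ng and at 22.1, 19.7, 33.8, 20.8 and 43.3 TMM CPM from 100 to 10 pg, and its log2 difference of 100 pg to 5 ng went from -1.68 with TMM factors to 0.47 by library total. KRP5 (AT3G24810), an inhibitor studied in root growth, was at 14.5 TMM CPM at 5 ng and at 6.98, 6.94, 2.39, 6.59 and 1.12 TMM CPM, not called lower at 100 pg (-0.95, and 1.0 by library total).

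SIM (AT5G04470), the founder of the SIAMESE family, which turns trichome cells from division to endoreduplication, was at 44.5 TMM CPM at 5 ng and at 16.4, 20.2, 20.2, 24.0 and 83.5 TMM CPM from 100 to 10 pg. The 5 ng library thus stood above all but the 10 pg library, and the log2 difference of 100 pg to 5 ng, -1.39, was 0.73 by library total. The remaining inhibitors were lower at 5 ng than at 100 pg, as most cyclins were. KRP7 (AT1G49620) had 0 pairs at 5 ng and was at 15.2, 18.1, 44.3, 17.8 and 19.3 TMM CPM elsewhere, at least 79.1-fold higher at 100 pg. KRP3 (AT5G48820) was at 6.78 TMM CPM at 5 ng and at 37.4, 33.0, 29.4, 21.6 and 51.7 TMM CPM in the smaller amounts, 5.52-fold higher at 100 pg (4.53 to 6.78). KRP1 (AT2G23430) was at 0.512 TMM CPM at 5 ng and between 6.20 and 41.7 elsewhere, and SMR1 (AT3G10525) at 0.576 at 5 ng, between 7.04 and 25.6 from 100 to 25 pg, and at 0.210 at 10 pg.

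**Figure D3:**
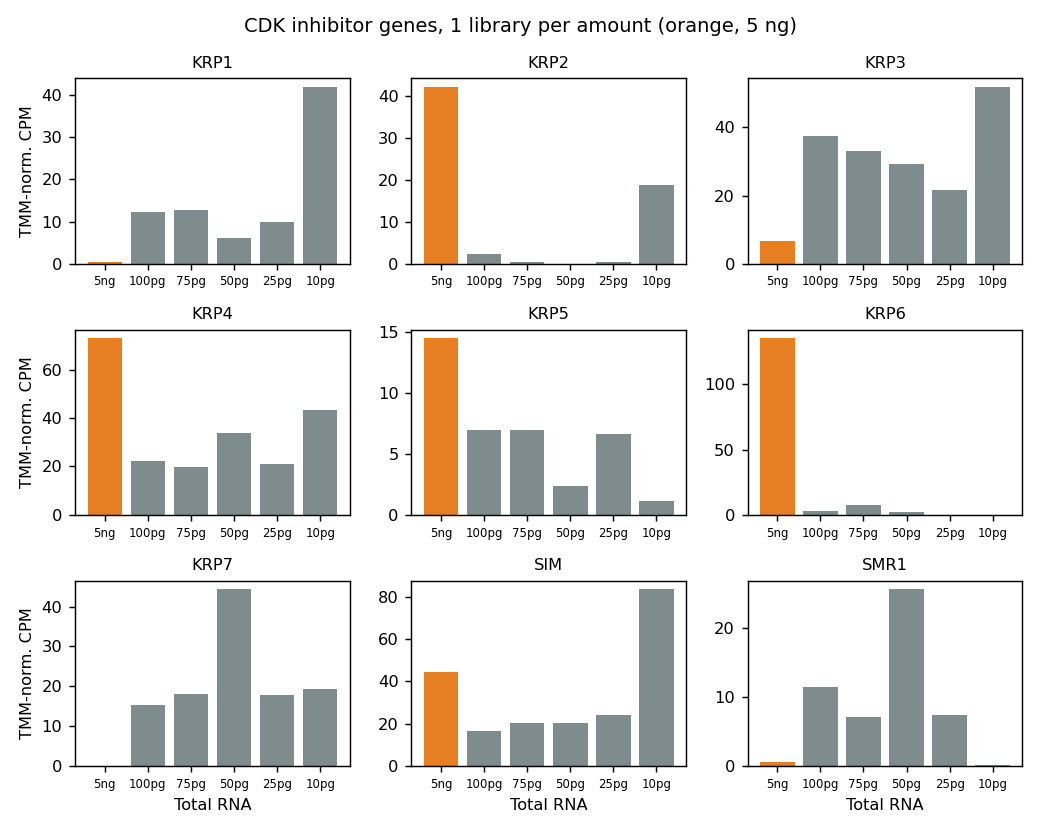
TMM CPM of the 9 CDK inhibitor genes (vertical, each panel with its own scale from 0) in the library of each RNA amount (horizontal), 1 library per bar, the 5 ng library in orange. KRP6 reached 135 at 5 ng and at most 7.33 elsewhere, whereas KRP7 had no pair at 5 ng.

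RBR1 and its partners, which hold and release the genes of DNA replication, were detected in each library except for E2FC at 50 pg. RBR1 (AT3G12280), the retinoblastoma-related repressor, was at 5.44 TMM CPM at 5 ng and at 37.3, 30.7, 25.4, 56.5 and 59.0 TMM CPM from 100 to 10 pg, 6.86-fold higher at 100 pg (5.52 to 8.64). DPB (AT5G03415), a dimerization partner of E2F proteins, was at 27.8 TMM CPM at 5 ng and at 28.6, 15.3, 8.73, 62.0 and 4.47 TMM CPM, so that 5 ng lay inside the range of the smaller amounts. E2FB (AT5G22220), an activating E2F, had 16.5 TMM CPM at 5 ng and 8.71, 6.48, 14.9, 1.51 and 0.0699 TMM CPM elsewhere. With TMM factors its 5 ng library was the highest, by a small margin over 50 pg, and only 2 pairs were found at 10 pg. By library total the order was another, with 5.05 CPM at 5 ng and 12.3, 8.75 and 19.8 CPM at 100, 75 and 50 pg.

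E2FC (AT1G47870), a repressing E2F that was chosen for mention after its values were seen, had 33 pairs at 5 ng and 1052, 343, 0, 21 and 1094 pairs at 100, 75, 50, 25 and 10 pg. The 100 and 10 pg libraries were high, that of 75 pg lower, and those of 50 and 25 pg at or near 0. E2FA (AT2G36010) was at 1.15 TMM CPM at 5 ng and between 1.46 and 11.5 elsewhere. DEL1 (AT3G48160), a repressor of endoreduplication, was at 5.69 TMM CPM at 5 ng and between 12.1 and 26.3 elsewhere. DEL1 shares 12% of its 100-base stretches with the overlapping gene AT3G48170. DPA (AT5G02470) was at 12.2 TMM CPM at 5 ng, at 3.86 and 4.51 at 100 and 10 pg, and between 13.8 and 15.8 in the others, so its call against 5 ng depends on the library taken for comparison.

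The APC/C activators were split. CDC20.1 (AT4G33270), which activates the APC/C in mitosis, was at 3.07 TMM CPM at 5 ng and at 105, 72.7, 86.1, 71.0 and 63.9 TMM CPM from 100 to 10 pg, 34.3-fold higher at 100 pg (25.8 to 46.6). It shares 20.6% of its 100-base stretches with its neighbour CDC20.2 (AT4G33260), so its count is uncertain for the same reason. CCS52B (AT5G13840), an activator of dividing cells, had 0 pairs at 5 ng and was at 32.2, 32.5, 73.0, 16.0 and 98.0 TMM CPM elsewhere, at least 168-fold higher at 100 pg. CCS52A1 (AT4G22910) and CCS52A2 (AT4G11920), which promote endoreduplication, were the members of this group with pairs at 5 ng and zeros at small amounts. CCS52A1 had 78 pairs at 5 ng, 165 and 187 pairs at 100 and 75 pg and 0 pairs at 50, 25 and 10 pg, and CCS52A2 had 73 pairs at 5 ng, 34, 196, 237 and 313 pairs from 100 to 25 pg and 0 pairs at 10 pg. CCS52A2 was called lower at 100 pg than at 5 ng, but its levels at 75, 50 and 25 pg lay above the 5 ng level.

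Levels of different genes were set side by side per kilobase of gene model, as the median of the 100, 75 and 50 pg libraries. The order began with the D-type cyclin AT5G67260 at 159 TMM CPM per kb, CKS1 at 143 and CKS2 at 87.0, followed by the B-type cyclin AT5G06150 at 59.2, CDC20.1 at 48.7, the B-type CDK AT1G76540 at 46.0, CDKA1 at 42.2 and the D-type cyclins AT4G34160 at 41.9 and AT3G50070 at 36.9. Over these 3 libraries AT5G67260 ranged from 124 to 204 and CKS1 from 60.2 to 163, so these neighbours overlapped, as did AT5G06150 (46.5 to 77.5), CDC20.1 (41.1 to 59.5), AT1G76540 (39.2 to 75.5) and CDKA1 (32.1 to 52.0). At 5 ng the order was another, with KRP6 at 149 TMM CPM per kb, SIM at 56.1, KRP4 at 51.6, KRP2 at 42.9 and CKS1 at 22.5. AT5G67260, first in the smaller amounts, was at 7.01 per kb there.

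**Figure D4:**
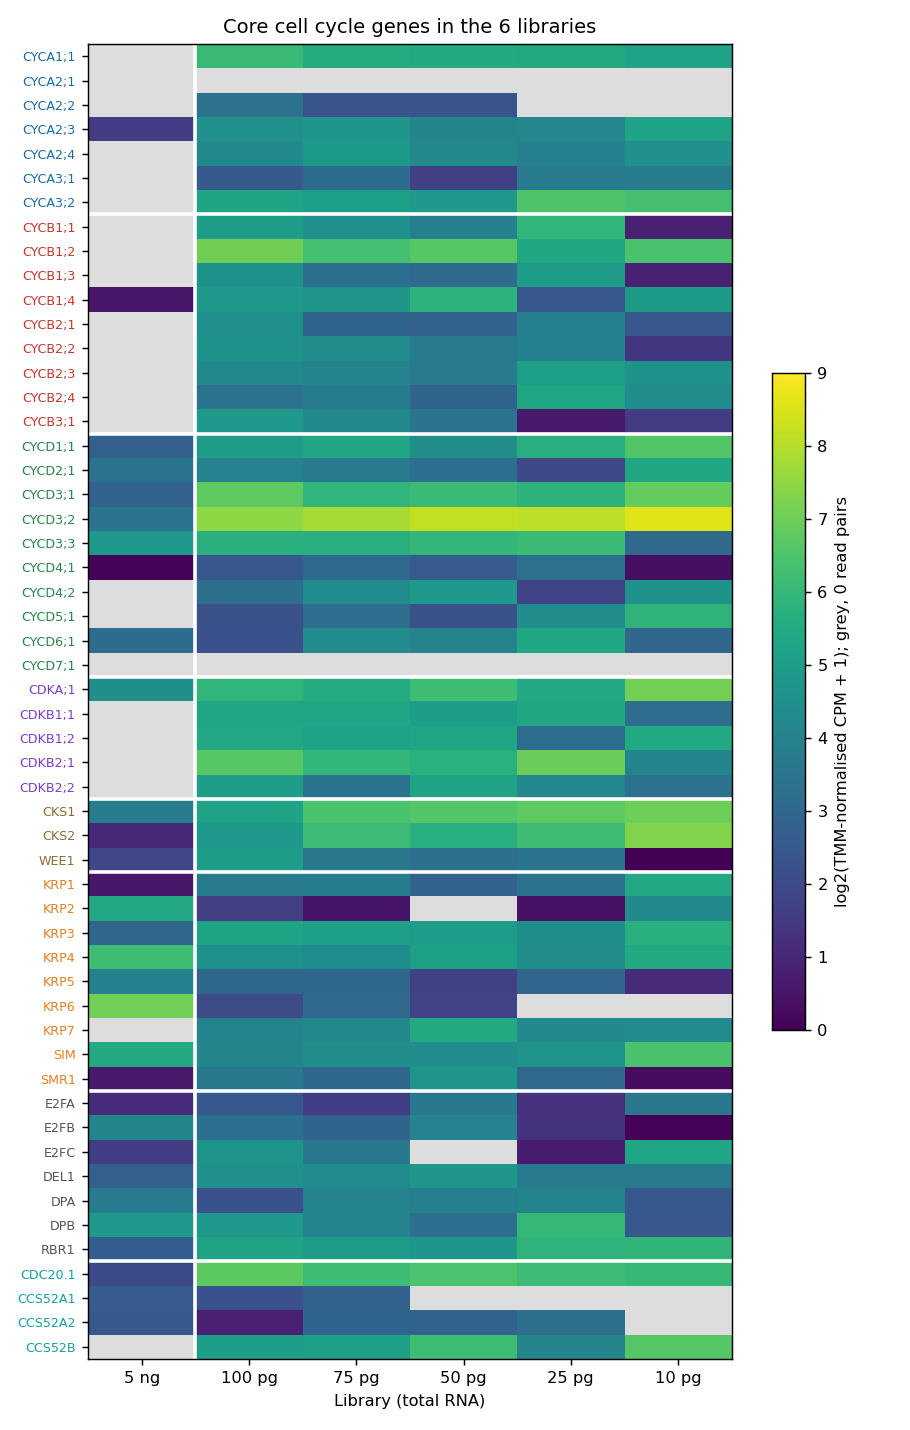
Level of the 54 members (rows, coloured by role) in the 6 libraries (columns), as log2(TMM CPM + 1), where grey marks 0 read pairs. The 5 ng column is grey for 23 genes, most of them A- and B-type cyclins and B-type CDKs, against 2 genes at 100 pg and 6 at 10 pg.

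Within the 5 libraries of the same sequencing date, the members were compared with the 100 pg library. At 75 pg 6 members were called higher (background 13.8% of all genes) and 7 lower (background 14%). At 50 pg 9 were higher (16%) and 11 lower (20.2%), and at 25 pg 10 were higher (18%) and 14 lower (27.9%). At 10 pg 15 were higher (21.8%) and 18 lower (36.6%). By library total the numbers at 10 pg were 8 higher and 23 lower, and over all genes the split went from 3711 higher and 6235 lower to 2589 and 7134. In each library the members' share was near that of all genes, so these counts show nothing particular to the set.

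Loss of detection at small amounts was also close to the background. Of the members with 10 to 100 TMM CPM at 100 pg none of 32 had no pair at 10 pg, against 3.71% of all genes of that class, and 6 of 32 were at least 10-fold lower, against 20.3%. The members without a pair at 10 pg were the A-type cyclins AT5G25380 and AT5G11300, CYCD7, KRP6, CCS52A1 and CCS52A2. The SD of log2 levels over the 100, 75 and 50 pg libraries had a median of 0.46 over the members of that class and 0.48 over all its genes, and over all 5 smaller amounts 0.91 and 0.81.

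**Figure D5:**
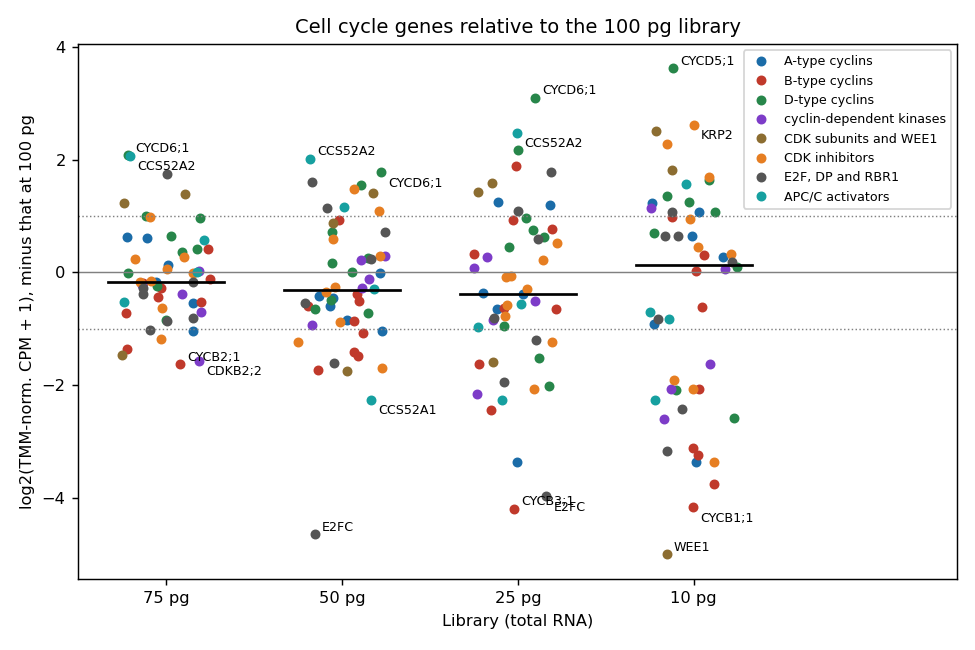
Difference of each of the 52 detected members from its level at 100 pg (vertical, on the scale log2(TMM CPM + 1)) in the libraries of 75, 50, 25 and 10 pg (horizontal, points coloured by role, spread sideways, black line the median, dotted lines 2-fold). The points spread with decreasing amount, from WEE1 at -5.01 to the D-type cyclin AT4G37630 at 3.63 at 10 pg, while the median stays near 0.

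The slope of the level on the log2 of RNA amount over the 5 smaller amounts was the one test the design allowed. With the quasi-likelihood test of edgeR and Benjamini-Hochberg adjustment over 17366 genes, 0% of all genes and none of the 52 members tested passed an adjusted p of 0.05, the lowest adjusted p of a member being 0.312. At an unadjusted p under 0.05 there were 10 members, against 13.8% of all genes. The count moved with single libraries, with 5 members without the 100 pg library, 6 without that of 75 pg, 8 without 50 pg, 19 without 25 pg and 6 without 10 pg. With DESeq2 6 members passed the adjusted threshold, against 11% of 16355 genes. Among the 10 members, 6 leaned to higher levels at small amounts. Their log2 slopes per doubling of RNA were -0.56 for CKS2, -0.65 for SIM, -1.12, -0.26 and -0.48 for the D-type cyclins AT4G37630, AT5G67260 and AT1G70210, and -0.45 for the A-type cyclin AT1G47210. The other 4, CCS52A1, KRP6, the A-type cyclin AT5G11300 and the B-type cyclin AT1G16330, leaned to lower levels. With 3 residual degrees of freedom the test measures the scatter of single libraries around a line.

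A further 37 genes of the pathway were described in the same way from a list set by function. This list was drawn up with earlier results of these data known, so it is not an independent set. The 100 pg library was called higher than 5 ng for 30 of them and lower for 2, against 36.1% and 25.3% of all genes tested. Each smaller amount was at least 2-fold above 5 ng for 8 of the 37, against 14.1% of all genes, and at least 2-fold below it for 1, against 12.2%. Their sum was 207 TMM CPM at 5 ng and between 725 and 1026 elsewhere, and 11 had no pair at 5 ng, against 11% of all genes. Among 10 genes of mitotic kinases, spindle checkpoint and cytokinesis, KNOLLE (AT1G08560), the syntaxin of the cell plate, was at 2.56 TMM CPM at 5 ng and at 197, 129, 154, 258 and 195 TMM CPM from 100 to 10 pg. MAD2 (AT3G25980), of the spindle checkpoint, had 0 pairs at 5 ng and was at 56.7, 31.8, 56.6, 65.7 and 6.36 TMM CPM elsewhere.

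Of the 12 further genes of the APC/C, CDC20.2 had 0 pairs at 5 ng and was at 58.0, 24.5, 17.5, 36.5 and 130 TMM CPM elsewhere. APC11 (AT3G05870), a RING subunit, was at 21.7 TMM CPM at 5 ng and between 24.2 and 50.7 elsewhere. Of the 5 three-repeat MYB genes and partners, TSO1 (AT3G22780) was at 22.9 TMM CPM at 5 ng and at 83.5, 36.8, 37.3, 61.5 and 109 TMM CPM from 100 to 10 pg, while MYB3R1 (AT4G32730), whose protein binds the MSA element, was at 1.02 at 5 ng, at 48.2 at 100 pg and between 0.734 and 23.4 in the others. Of the 5 CDK-activating kinase genes, CAK1AT (AT4G28980) was at 4.03 TMM CPM at 5 ng and at 19.9, 21.5, 3.57, 8.96 and 0.105 elsewhere, and CAK4 (AT1G66750) at 19.4 at 5 ng and between 8.56 and 28.6 elsewhere.

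The last 5 genes of the list, E2F-like and SIAMESE-related, held both genes called lower at 100 pg. SMR5 (AT1G07500), an inhibitor induced by oxidative stress, had 694 pairs at 5 ng and 0 pairs in each other library, at least 644-fold higher at 5 ng than at 100 pg, where 0 pairs allow up to 3. AT1G08180 was at 9.85 TMM CPM at 5 ng and between 0.0349 and 5.20 elsewhere. DEL2 (AT5G14960) and DEL3 (AT3G01330) had no pair at 5 ng or at 10 pg and between 4.92 and 11.7 TMM CPM in the libraries between.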

How the data were processed

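RNA-seq was carried out on 6 libraries of Arabidopsis RNA, 1 per amount. The authors trimmed the paired reads, removed ribosomal reads with SortMeRNA, aligned the rest to the TAIR10 representative gene models with Bowtie2 and dropped reads with several hits; the submitters' processing notes also name TopHat2. The deposited values are raw counts of read pairs per gene model for 33602 models, with the model's length and counts of single reads, which were used for genes without a pair and for an alternative count of members with at least 1 CPM. The libraries are not stranded. The date correction of the study was not repeated, since the 5 ng library alone makes up its date. 

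Counts were scaled with TMM factors (edgeR 4.0.16, R 4.3.3), which ran from 0.306 at 5 ng to 1.41 at 100 pg, and log2 differences used a pseudocount of 1 CPM. Fold changes use scaled counts without a pseudocount, with 3 pairs per library in place of 0 and exact 95% intervals from the conditional binomial distribution (SciPy 1.17.1). Backgrounds were taken over 17049 genes with a mean of at least 1 CPM by library total. The slope was tested with the quasi-likelihood test of edgeR and, as an alternative, with DESeq2 1.42.0. The fit was tried on counts simulated at a fixed dispersion. That trial does not show how the test performs at the scatter of these libraries. Upstream windows were read from the TAIR10.1 genome with RefSeq gene starts, and all 54 loci matched.

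The members and lists were chosen with earlier results of these data known. Values were given library by library for the 2 members of each role highest at 100 pg, those higher at 5 ng than in each other library, those with no pair at 10 or 25 pg and at least 10 CPM at 100 pg, and the 3 largest differences each way between 10 and 100 pg among members with at least 10 CPM in either. SIM, KRP7, CCS52A1, CCS52A2, E2FC, DPA and CYCB3;1 fall outside this rule and were given in such detail after their values were seen. The alternatives were other scalings, pseudocounts of 0.5 and 5, no filter, other reference libraries, stricter detection, thinning and the omission of each library. Thinning was to the smallest total of pairs, with the storage protein genes counted in that total.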

Additional observations from a re-analysis of the deposited data

How the results depend on the processing

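The number of members higher at 5 ng than at 100 pg, 6, was 2 by library total, and the number higher at 5 ng than in each other library, 2, was 1 by library total and 1 with a pseudocount of 5. With a pseudocount of 5 the members lower than at 100 pg numbered 4 in place of 7 at 75 pg, 6 in place of 11 at 50 pg and 9 in place of 14 at 25 pg. With 75 pg as the reference 5 were lower at 50 pg. By library total 8 in place of 15 were higher at 10 pg. With a minimum of 10 pairs 10 in place of 6 were undetected at 10 pg. The slope test of DESeq2 called 6 members and 1794 genes, against 0 and 0 with edgeR, and with edgeR the counts without each library in turn ran from 0 to 0 for the members and from 0 to 0 for all genes. Of the pathway list, 1 in place of 2 genes was higher at 5 ng by library total, with a pseudocount of 5 and with 50 pg as the reference. Of the differences past 2-fold between 100 pg and 5 ng, those of KRP4 (0.47), SIM (0.73) and DPA (0.45) turned by library total, that of DPA also with 75 pg (0.31) or 50 pg (0.17) as the reference, that of CCS52A2 with 75 pg (0.40) or 50 pg (0.35), and that of E2FC with 50 pg (-1.64). With 50 pg as the reference the differences past 2-fold at 25 pg of WEE1 (0.16), KRP2 (0.46) and E2FC (0.68) and those at 10 pg of CYCD4;2 (-0.30) and E2FA (-0.0748) turned too. Differences under 2-fold that changed sign are not all listed, and by library total those of 100 pg to 5 ng did so for KRP5, E2FB, CYCD6;1 and CCS52A1. The causes were not tested, except that a library taken as the reference enters with its own level. The other counts, 110 in all, stayed within 1.5 times of their values. Thinning matched total pairs only, and storage protein genes held 59.4% of the pairs at 5 ng. No paired analysis was possible because each RNA amount has 1 library. Members at 0 pairs are limited to 3 pairs by counting error only.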
